A study of Mus musculus with 2 samples.

Results

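The genes examined were Nes, Vim, Msi1, Msi2, Prom1, Fabp7 and Slc1a3, 7 markers of radial glia and neural progenitors among 21853 protein-coding genes with an annotated transcription start site (TSS). They were taken by name as a fixed set, with earlier results of these data known; the rule used no measured value. Open chromatin had been mapped by DNase-seq, which sequences the ends left where the enzyme DNase I cuts accessible DNA in nuclei. The tissue was B6NCrl mouse neural tube at embryonic day 11.5, pooled from males and females with no mutation or treatment named in the labels. The labels gave 1 group with 2 biological replicates, 1 library each, called replicate 1 and replicate 2 here. Both carried the same donor label, so the spread between them may be partly technical. Peaks of 150 bp were counted as promoter peaks within 500 bp of any TSS of a gene, as intronic peaks when their centre lay in an intron, and as distal peaks when their centre lay over 1 kb from every protein-coding TSS and nearest to a TSS of the gene. A peak in an intron could also be distal. By these rules the 7 genes held 216 of 199653 peaks in replicate 1 and 179 of 154324 peaks in replicate 2.

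Radial glia are the stem cells of the embryonic nervous system. Their bodies line the ventricle, their processes span the wall of the neural tube, and their divisions give rise to neurons and later to glia. Before neurogenesis the tube consists of neuroepithelial cells, which already make several of the same proteins. Nes encodes nestin and Vim encodes vimentin, the intermediate filaments of these cells, and vimentin is also the filament of mesenchyme. Msi1 and Msi2 encode the Musashi RNA-binding proteins, which regulate translation in stem cells. Prom1 encodes prominin-1, or CD133, a glycoprotein of membrane protrusions at the apical surface. Fabp7 encodes the brain lipid-binding protein and is a target of Notch signalling, and Slc1a3 encodes the glutamate transporter GLAST, which marks radial glia and astrocytes.

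Sequences are shown for the peaks that set these genes apart from each other: the promoters of Nes and Fabp7, of which that of Fabp7 is GC-poor, both promoter peaks of Slc1a3, and the strongest sites outside promoters at Nes, Msi1 and Slc1a3. They were read from the GRCm38.p6 sequence (mm10), each from 5′ to 3′ on the strand of its gene. Capitals mark matches, on either strand, to any of the motifs searched. Those were ACAAAG and ACAATG for SOX, ATGCNAAT for the POU octamer, TGGGAA for RBPJ, TAATTA for homeodomain factors, TTGGCA for NFI, CAGCTG and CAGATG for E-boxes, GACCACCCA for GLI, CTTTGAT for TCF/LEF, GGGCGG for SP/KLF, CCAATCA for NF-Y, GCGCATGCG for NRF1, CCGGAAG for ETS, CCANNAGGG for CTCF, TTCAGCACC for REST, CATTCCA for TEAD, GTTGCCNNG for RFX and CAGCAGG for ZIC. Some of these overlap within 1 window. A match describes the letters of a window and shows no binding.

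The Nes promoter peak of replicate 1 (chr3:87970956-87971105, plus strand), the peak in the second intron of Nes (chr3:87974396-87974545, plus strand) and the strongest distal peak of Nes, upstream of the gene (chr3:87960896-87961045, plus strand), read as follows.
Nes promoter peak: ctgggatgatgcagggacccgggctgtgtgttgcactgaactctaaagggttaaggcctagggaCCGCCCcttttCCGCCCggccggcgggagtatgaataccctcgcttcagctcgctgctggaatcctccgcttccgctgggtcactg
Nes second intron: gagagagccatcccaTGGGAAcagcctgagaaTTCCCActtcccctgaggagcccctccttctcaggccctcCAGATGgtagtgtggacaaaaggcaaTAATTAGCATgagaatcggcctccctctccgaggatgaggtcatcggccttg
Nes upstream peak: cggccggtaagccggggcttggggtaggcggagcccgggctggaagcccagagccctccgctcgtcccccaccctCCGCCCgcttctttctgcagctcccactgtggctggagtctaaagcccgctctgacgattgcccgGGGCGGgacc

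The strongest peak in the introns of Msi1 (chr5:115436536-115436685, plus strand) reads as follows.
Msi1 intronic peak: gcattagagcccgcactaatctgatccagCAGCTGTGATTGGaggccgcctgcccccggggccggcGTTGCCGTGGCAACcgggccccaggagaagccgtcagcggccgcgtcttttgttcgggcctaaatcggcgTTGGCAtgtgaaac

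The promoter peak of Fabp7 (chr10:57784756-57784905, plus strand), the promoter peaks of Slc1a3 in replicate 1 (chr15:8710456-8710605, minus strand) and in replicate 2 (chr15:8710296-8710445, minus strand), its strongest shared intronic peak (chr15:8659596-8659745, minus strand) and its strongest distal peak (chr15:8629396-8629545, minus strand) read as follows.
Fabp7 promoter peak: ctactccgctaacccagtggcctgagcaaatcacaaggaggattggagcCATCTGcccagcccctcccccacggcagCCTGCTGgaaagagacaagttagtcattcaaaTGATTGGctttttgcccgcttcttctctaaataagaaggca
Slc1a3 promoter peak, replicate 1: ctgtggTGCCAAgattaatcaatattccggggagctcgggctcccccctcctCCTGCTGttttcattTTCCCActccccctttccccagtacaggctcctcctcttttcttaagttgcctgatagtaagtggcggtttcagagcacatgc
Slc1a3 promoter peak, replicate 2: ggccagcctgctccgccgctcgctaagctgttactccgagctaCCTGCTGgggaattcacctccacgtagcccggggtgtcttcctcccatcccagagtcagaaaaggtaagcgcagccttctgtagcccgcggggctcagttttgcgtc
Slc1a3 intronic peak: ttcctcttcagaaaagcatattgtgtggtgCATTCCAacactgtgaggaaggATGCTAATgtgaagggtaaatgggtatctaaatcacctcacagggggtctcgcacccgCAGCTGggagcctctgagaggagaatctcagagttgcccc
Slc1a3 downstream peak: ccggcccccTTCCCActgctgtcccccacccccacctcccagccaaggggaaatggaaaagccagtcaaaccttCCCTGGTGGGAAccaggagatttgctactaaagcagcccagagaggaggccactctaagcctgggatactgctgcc

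The octamer matches in the second intron of Nes and in the intron of Slc1a3 were the same letters, ATGCTAAT, on the reverse strand in Nes and on the forward strand in Slc1a3. At Nes the overlapping peak of replicate 2 also held an octamer, whereas at Slc1a3 the window of replicate 2, which overlapped by 90 bp, held 0. An octamer was held by 2.25% of all intronic peaks in replicate 1 and by 1.68% in replicate 2. In Nes it overlapped a homeodomain match, which 3.67% and 2.44% of all intronic peaks held. The intronic peak of Msi1 carried 2 overlapping RFX matches on opposite strands. At least 1 RFX match was in 3.14% and 3.08% of all intronic peaks, and the share with such a pair was not counted. The downstream peak of Slc1a3 carried a CTCF match, as did 5.78% of all distal peaks in replicate 1 and 6.41% in replicate 2.

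The promoters of all 7 genes were open in both libraries. A promoter peak was present at 7 of 7 marker genes in replicate 1, against 68.5% of all protein-coding genes, and at 7 of 7 in replicate 2, against 67.7%. An intronic peak was present in 7 of the 7 in replicate 1, against 58.3% of all genes with introns, and in 6 of the 7 in replicate 2, against 51.9%; Fabp7 was the gene without one. A distal peak was assigned to 7 of 7 in replicate 1, against 73.7% of all genes, and to 7 of 7 in replicate 2, against 69.8%. With 2 libraries of 1 group no test was possible, and these shares are descriptions of 7 genes. In bulk tissue, a site open in few cells and a site cut less often in every cell cannot be told apart.

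**Figure D1:**
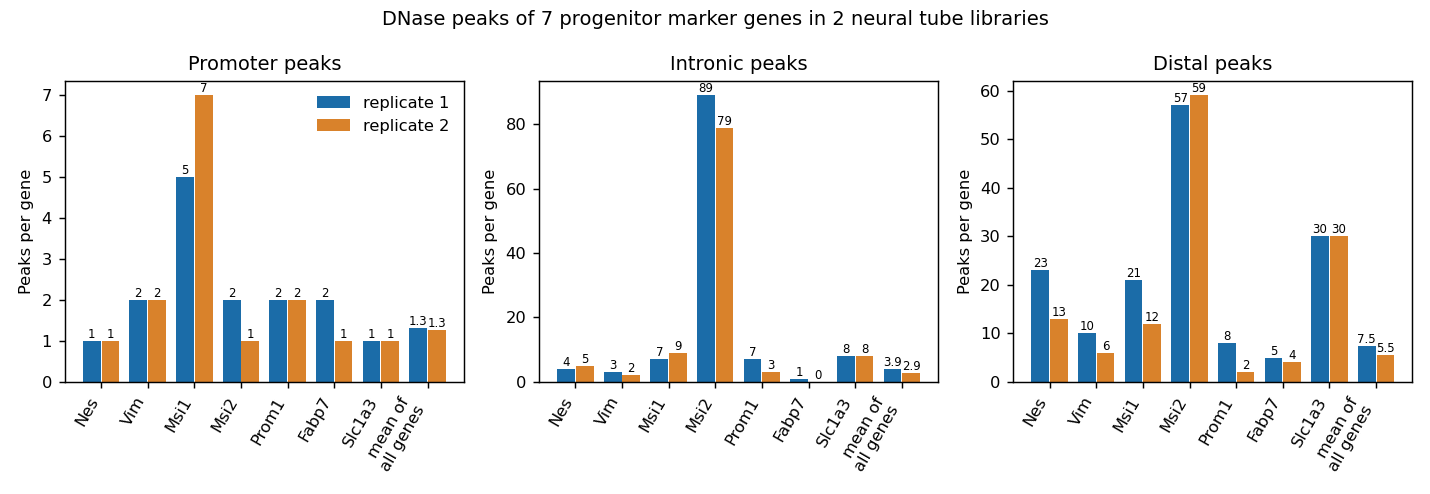
Number of promoter, intronic and distal peaks (vertical axes, peaks per gene) of each marker gene, with the mean over all protein-coding genes at the right, in replicate 1 (blue) and replicate 2 (orange). For intronic peaks the mean is over the 20427 genes with introns. Msi2 had 89 and 79 intronic peaks and Slc1a3 had 30 distal peaks in each library, whereas Fabp7 had 1 intronic peak in replicate 1 and 0 in replicate 2, with 5 and 4 distal peaks.

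The rank of the promoter peaks varied widely among the 7 genes. The best promoter score of a gene was placed as a percentile among all genes with a promoter peak, because the authors' score is a whole number of unstated meaning that can be ranked within a library but not compared between libraries. Only Nes and Vim stood above the 50th percentile, in both libraries. Their mean percentiles were 74.7 ± 4.8 for Nes and 70.8 ± 10.4 for Vim (SD, n = 2), and the values of the 2 genes overlapped. Msi2 followed at 47.9 ± 2.5, apart from those above and below it. Fabp7 at 33.8 ± 2.1, Prom1 at 33.4 ± 7.7 and Msi1 at 32.8 ± 9.9 overlapped one another. Slc1a3 was lowest in both libraries, at 16.3 ± 0.6.

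**Figure D2:**
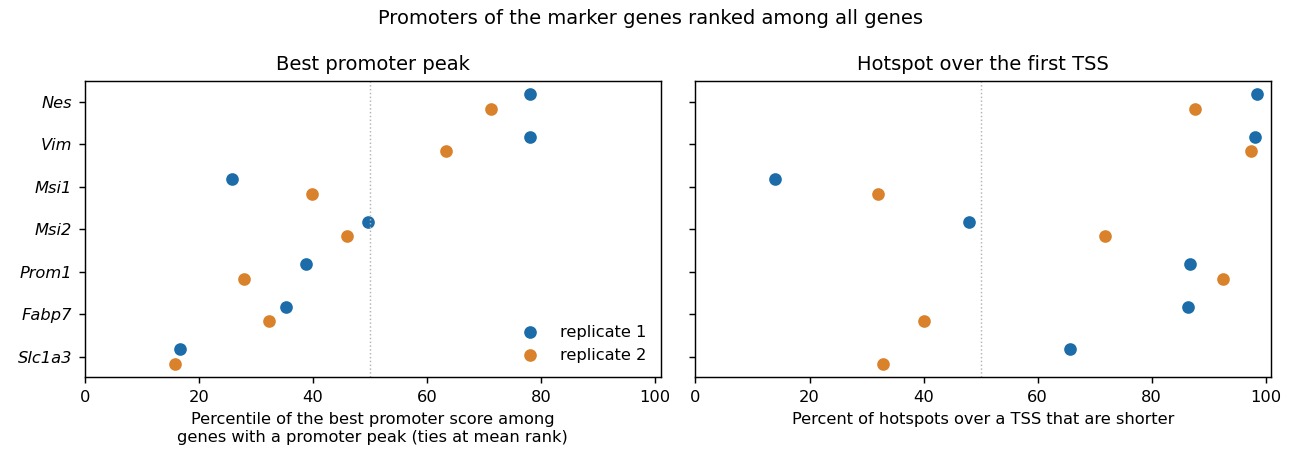
Left, percentile of the best promoter score of each marker gene among all genes with a promoter peak; right, percent of all hotspots over a TSS that are shorter than the hotspot over the first TSS of the gene, in replicate 1 (blue) and replicate 2 (orange), with a dotted line at 50. Nes and Vim lie to the right of the line in both panels, and Slc1a3 has the lowest promoter percentile.

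The density of distal peaks gave another order. Each gene was assigned a territory, meaning all bases for which its TSSs are the nearest in the genome, which was 25.5 kb for Nes, 124.9 kb for Vim, 61.3 kb for Msi1, 278.9 kb for Msi2, 171.0 kb for Prom1, 71.7 kb for Fabp7 and 224.2 kb for Slc1a3. Nes held 90.2 distal peaks per 100 kb of territory in replicate 1 and 51.0 in replicate 2, against 5.99 and 4.43 over all genes pooled. Its percentiles among all genes were 99.8 and 99.1. Msi1 had 34.2 and 19.6 distal peaks per 100 kb, Msi2 20.4 and 21.1, and Slc1a3 13.4 in each library. Vim with 8.01 and 4.80 and Fabp7 with 6.97 and 5.58 were somewhat above the pooled values, and Prom1 with 4.68 and 1.17 was below them. By percentile, Nes stood above Msi1 and Msi2, which overlapped, then came Slc1a3, then Vim and Fabp7, which overlapped, and Prom1 came last.

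**Figure D3:**
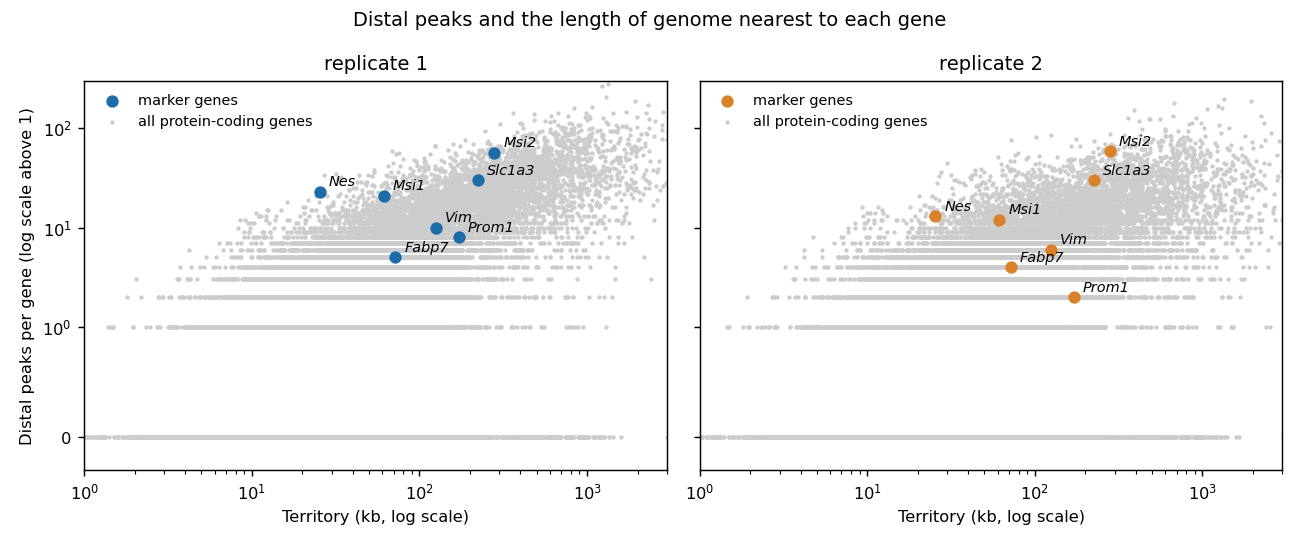
Distal peaks per gene (vertical axis, log scale above 1) against the territory of the gene (horizontal axis, kb, log scale) for the 7 marker genes (coloured, named) and all protein-coding genes (grey), 1 panel per library. Nes and Msi1 lie high for their territories. Their density percentiles were 99.8 and 97.8 in replicate 1 and 99.1 and 93.3 in replicate 2. Prom1 lies low, with 8 peaks in replicate 1 and 2 in replicate 2.

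Hotspots, broader regions that carry a −log10 q-value from the authors, again set Nes and Msi1 apart. Every peak of the marker genes lay in a hotspot of its own library, so this measure is not independent of the peaks. Msi2 and Slc1a3 stood lower here, at mean percentiles of 72.0 and 67.4, than by distal density, at 93.4 and 85.2. Hotspots covered 49.3% of the territory of Nes in replicate 1 and 25.6% in replicate 2, against 2.88% and 1.87% of all territories pooled. Msi1 had 22.0% and 17.0% of its territory in hotspots. The other marker genes ranged from 2.81% at Prom1 to 6.56% at Msi2 in replicate 1, and from 1.62% at Prom1 to 5.31% at Msi2 in replicate 2. Together the territories of the 7 genes held 73.4 kb of hotspots in replicate 1 and 51.5 kb in replicate 2 (mean 62.5 ± 15.5 kb, SD, n = 2).

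Nes, on chromosome 3 from 87971078 to 87980451 on the plus strand between Crabp2 and Bcan, spans 9.4 kb. Its promoter peak scored 138 in replicate 1, above 98.2% of that list, and 120 in replicate 2, above 97.1%. The second intron of the gene contains an enhancer that drives nestin in neural progenitors of transgenic mice and is known to bind SOX and POU factors. A peak at +3.4 kb from the first TSS lay in that intron in both libraries, with a score of 126 in replicate 1, above 95.2% of the list, and 96 in replicate 2, above 92.5%. Both windows held an octamer match, and neither held the exact SOX motifs ACAAAG or ACAATG. Looser SOX sequences were not searched, so this does not show that the windows lack a SOX site. Weaker peaks in the introns lay at +1.4 kb, with scores of 88 and 57, and at +2.8 kb in replicate 1, where it scored 81 and overlapped a peak of replicate 2 that scored 41. The strongest distal peak lay at -10.1 kb in intergenic sequence and was called in the same 150 bp in both libraries, with scores of 138 and 125, both above 98.2% of their lists. A pair of distal peaks beyond the 3′ end, at +12.0 and +12.3 kb in replicate 1, scored 85 and 92 there, and those they overlapped in replicate 2 scored 54 and 61.

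Much of the high count at Nes came from weak peaks of replicate 1. Beyond +7 kb that library held 17 peaks, of which 15 overlapped no peak of replicate 2. They ran from +7.2 to +13.3 kb, 8 of them within the transcribed span, and their scores of 21 to 52 were above 4.2% to 57.1% of the list. Replicate 2 had 3 peaks beyond +7 kb, and 1 of these was not shared. With equal numbers of peaks taken from both libraries by score, Nes had 10 distal peaks in replicate 1 and 13 in replicate 2, in place of 23 and 13. Of all its peaks, 7 of 24 in replicate 1 and 7 of 14 in replicate 2 were shared.

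Over the start of Nes, a single hotspot of 4983 bp ran from upstream of the promoter into the second intron in replicate 1 and was longer than 98.5% of all hotspots over a TSS. In replicate 2 the hotspot there was 1907 bp long, longer than 87.6%, and a separate hotspot of 1180 bp covered the intronic peak. The median hotspot over a TSS was 1509 bp in replicate 1 and 1114 bp in replicate 2.

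**Figure D4:**
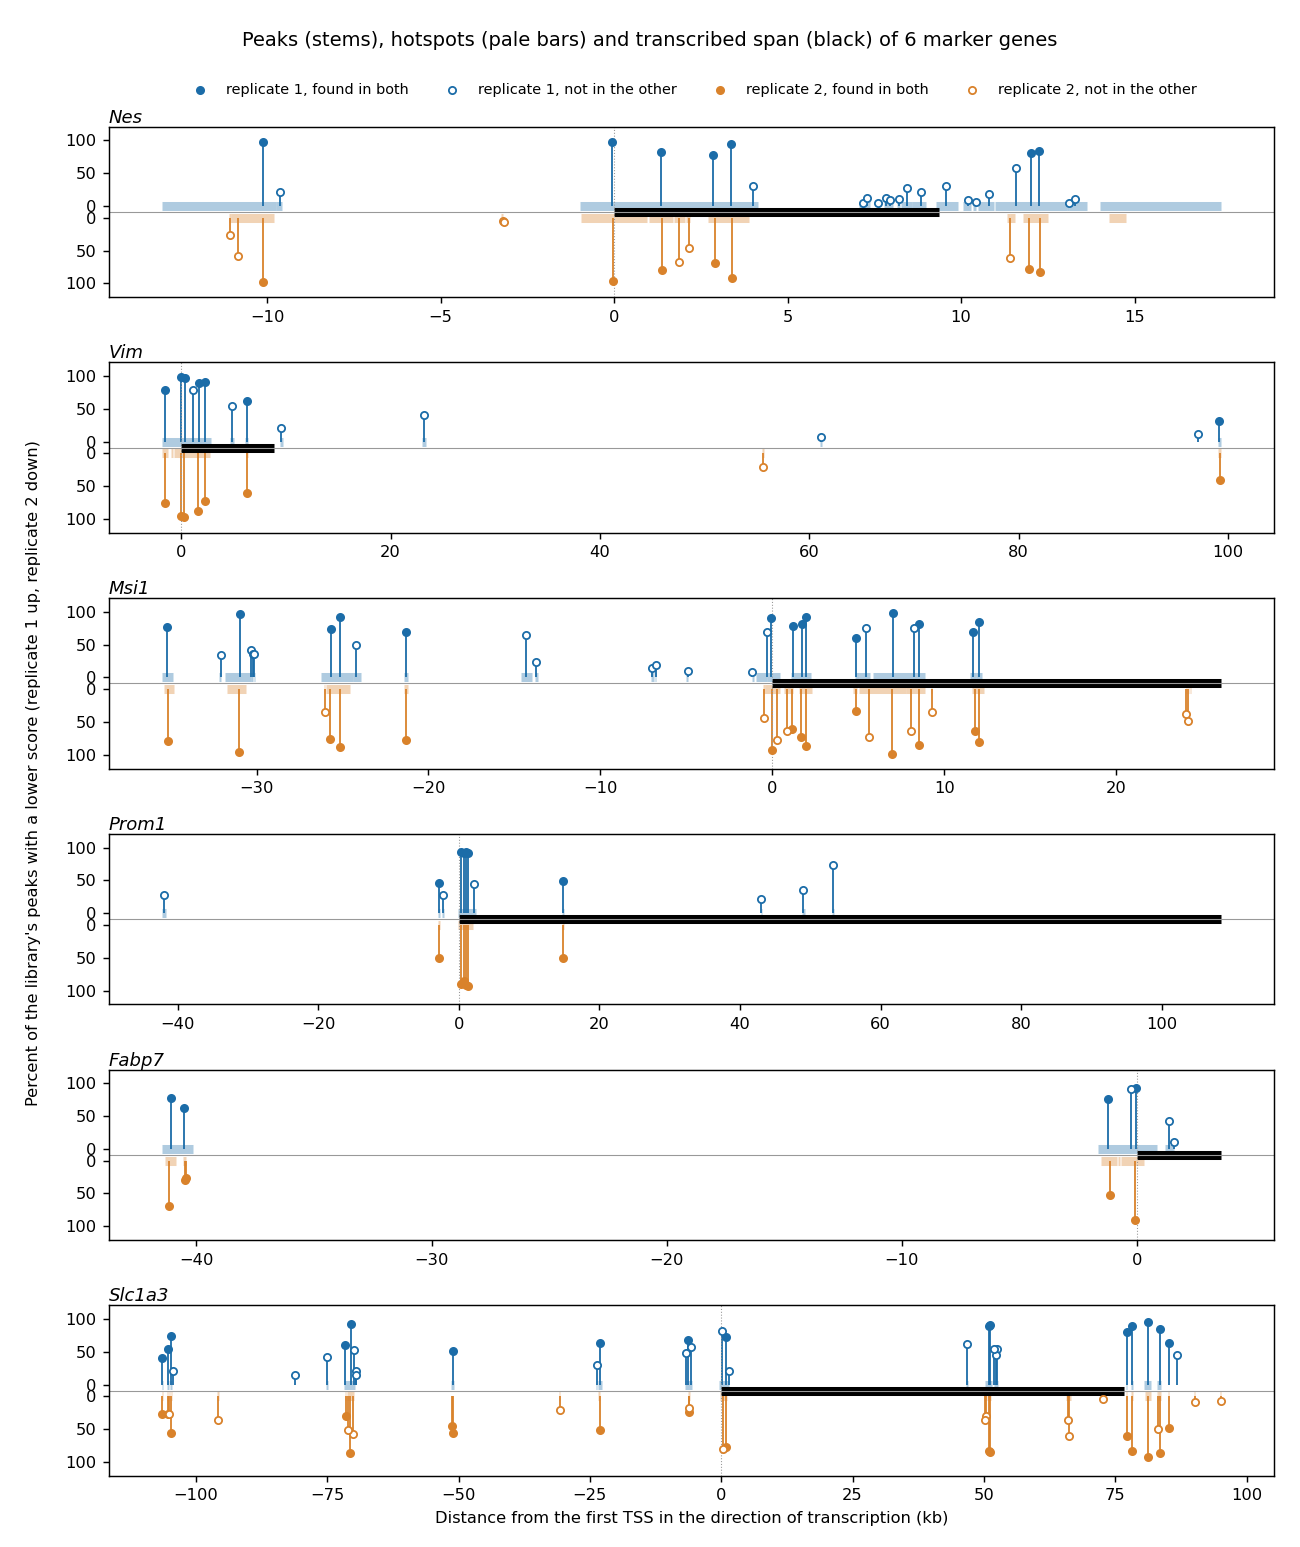
Peaks (stems) of 6 marker genes by distance from the first TSS in the direction of transcription (kb), with height showing the percent of the library's peaks that score lower, replicate 1 upward in blue and replicate 2 downward in orange; filled heads overlap a peak of the other library, pale bars are hotspots and the black bar is the transcribed span. Filled stems face each other by construction. The promoter stems of Slc1a3 are open in both libraries, and the short open stems from +7.2 to +13.3 kb at Nes are in replicate 1.

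Vim, on chromosome 2 from 13573927 to 13582826 on the plus strand, had its open chromatin gathered at the start of the gene. Of its promoter peaks, the one over the first TSS scored 138 in replicate 1 and 111 in replicate 2, and the one 324 bp into the gene in replicate 1, next to a further annotated TSS, scored 134 and 116. All were above 95.3% or more of their lists. In the body of the gene, a peak at +1.7 kb in replicate 1 scored 105 and overlapped one of 74 in replicate 2, and a peak at +2.3 kb scored 107 and 45. At -1.5 kb a distal peak scored 82 in replicate 1 and 50 in replicate 2. The hotspot over the start was 4728 bp long in replicate 1 and 2801 bp long in replicate 2, longer than 98.2% and 97.4% of those over a TSS. Farther away the territory was sparse: of 5 peaks beyond the 3′ end in replicate 1 and 2 in replicate 2, 1 was shared, with scores of 35 and 22, in an intron of St8sia6. Leaving out peaks within 5 kb of a TSS left Vim with 6 distal peaks in replicate 1 and 3 in replicate 2, in place of 10 and 6.

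Msi1, on chromosome 5 from 115429599 to 115455698 on the plus strand, has 4 annotated TSSs spread over 5397 bp and had the most promoter peaks of the 7 genes, 5 in replicate 1 and 7 in replicate 2. The peak over the first TSS scored 106 in replicate 1, above 90.0% of the list, and 98 in replicate 2, above 92.9%. Of the remaining promoter peaks, those at +1.2 kb and +4.9 kb were in both libraries, with scores of 80 and 55 in replicate 1 and 33 and 19 in replicate 2. The other promoter peaks, at -308 and 5472 bp in replicate 1 and at -468, 292, 832 and 5652 bp in replicate 2, did not overlap a peak of the other library and scored 67 and 77 in replicate 1 and 23 to 52 in replicate 2.

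The strongest site of Msi1 was not a promoter of the gene. At +7.0 kb a peak scored 140 in replicate 1, above 98.8% of the list, and 129 in replicate 2, above 98.9%. It lies in an intron of Msi1 and over an exon of the annotated transcript 4930430O22Rik. Its window in replicate 1 was 64.7% GC with 14 CpG dinucleotides, against medians of 50.7% and 2 over all intronic peaks of that library. Upstream, a group of distal peaks lay in introns of the annotated transcript Gm13832: at -31.0 kb the scores were 133 in replicate 1 and 117 in replicate 2, at -25.1 kb they were 113 and 78, and at -35.2 kb in replicate 1 and -35.1 kb in replicate 2 they were 79 and 54. In the introns, the peak at +2.0 kb scored 114 and 73 and the peak at 12052 bp scored 91 and 59. Replicate 1 had 11 further upstream peaks that replicate 2 lacked, with scores of 24 to 60, and replicate 2 had 1 that replicate 1 lacked, with a score of 20.

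Msi2 differed from its paralogue in extent. The gene, on chromosome 11 from 88339382 to 88718513 on the minus strand, spans 379.1 kb, nearly all of it intron (372.3 kb). It held 89 intronic peaks in replicate 1 and 79 in replicate 2, a percentile of 99.9 among all genes in both. Per 100 kb of intron these were 23.9 and 21.2 peaks, against 8.14 and 6.06 over all genes pooled. Msi2 thus supplied 74.8% of the intronic peaks of the marker genes in replicate 1 and 74.5% in replicate 2, and 37.0% and 46.8% of the distal peaks. Of the intronic peaks, 48 in each library were also distal peaks of Msi2; the others lay nearer to another gene's TSS or within 1 kb of a TSS.

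Shared peaks were spread along Msi2 rather than gathered at its start, but few of its peaks were among the strongest. The top 10% of the list held 8 of its 100 peaks in replicate 1 and 3 of its 91 peaks in replicate 2. The promoter peak scored 128 in replicate 1 and 104 in replicate 2, and these overlapped by 50 bp. Replicate 1 had a further promoter peak at -418 bp with a score of 109, among the top 10% of its list, that overlapped no peak of replicate 2 but lay in a hotspot of that library. The intronic peak that ranked best lay at +361.4 kb, near the 3′ end, and scored 123 in replicate 1 and 88 in replicate 2. The best shared distal peak lay at +133.3 kb, with scores of 121 and 83, and a peak at +236.8 kb scored 113 and 97. Between +50 and +100 kb replicate 1 had 8 intronic peaks and replicate 2 had 2, of which 3 and 2 were shared. Between +100 and +150 kb it was replicate 2 that had more, with 22 against 9 in replicate 1, of which 8 and 7 were shared.

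**Figure D5:**
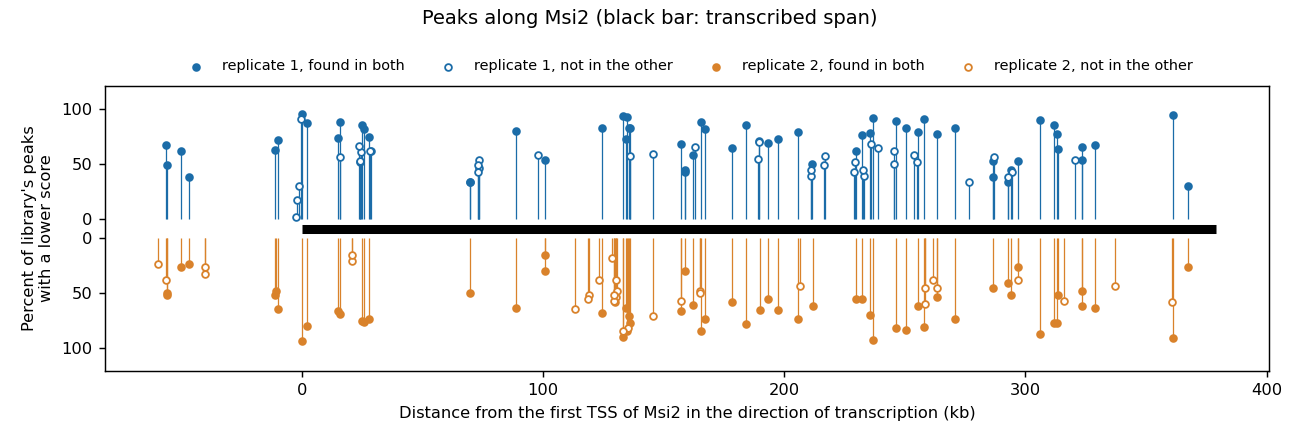
Peaks of Msi2 by distance from its first TSS (kb), drawn as in the maps of the other genes, with replicate 1 upward in blue and replicate 2 downward in orange. Filled stems lie from the start of the transcribed span to near its 3′ end, with gaps between them. In the widest gap neither library had a hotspot from 28747 to 69834 bp. Open stems of replicate 2 gather between +100 and +150 kb.

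Prom1, on chromosome 5 from 43993620 to 44102032 on the minus strand, has 9 annotated TSSs over 97113 bp, but its 4 strongest peaks lay within 1.4 kb of the first. That run of peaks was shared by both libraries. At 281 bp the scores were 121 in replicate 1 and 82 in replicate 2, at 721 bp in replicate 1 and 681 bp in replicate 2 they were 110 and 69, at 981 bp 119 and 92, and at 1361 and 1341 bp 113 and 102. These windows also overlap exons of the annotated transcript Gm16401. A hotspot of 2520 bp in replicate 1 and 2174 bp in replicate 2 covered them, longer than 86.7% and 92.5% of those over a TSS. Weaker shared peaks lay at +14.8 kb in replicate 1 and +14.9 kb in replicate 2, with scores of 45 and 26, and upstream of the gene, with scores of 43 and 26. Replicate 1 had 4 more peaks in the gene, with scores of 30 to 73, that replicate 2 lacked. In replicate 2, 6 of 6 peaks were shared, against 6 of 12 in replicate 1. Among the higher-scoring 50% of each list, Prom1 kept 2 distal peaks in replicate 1 and 0 in replicate 2.

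Fabp7, on chromosome 10 from 57784881 to 57788450 on the plus strand, is the shortest of the 7 genes (3.6 kb) and had the fewest peaks, 7 in replicate 1 and 5 in replicate 2. Its promoter peak scored 118 in replicate 1, above 93.3% of the list, and 89 in replicate 2, above 91.1%. That window was 52.0% GC with 3 CpG dinucleotides, far below the medians of 64.0% and 11 over all promoter peaks of replicate 1. It held matches to an E-box, ZIC and NF-Y, which were in 15.4%, 6.06% and 4.89% of all promoter peaks of replicate 1. A peak at -250 bp in replicate 1 scored 111, among the top 10% of that list, and overlapped no peak of replicate 2, although it lay in a hotspot of that library. Distal peaks lay at -1.2 kb, with scores of 78 in replicate 1 and 27 in replicate 2, and near -41.1 kb, with scores of 81 and 41. The hotspot over the start was 2501 bp long in replicate 1 and 981 bp long in replicate 2, longer than 86.3% and 40.0% of those over a TSS.

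Slc1a3, on chromosome 15 from 8634124 to 8710764 on the minus strand, combined the weakest promoter of the 7 with one of the larger sets of distal peaks. Its promoter peak scored 88 in replicate 1, above 82.2% of the list, and 57 in replicate 2, above 80.2%. These peaks did not overlap: that of replicate 1 lay 233 bp and that of replicate 2 lay 393 bp into the gene, the one before and the other over a further annotated TSS, and each lay within a hotspot of the other library. The window of replicate 1 was 52.7% GC with 3 CpG dinucleotides, and that of replicate 2 was 62.0% GC with 10.

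Distal peaks of Slc1a3 numbered 30 in each library. Of these, 15 were shared in replicate 1 and 16 were shared in replicate 2. Most lay far away, since 7 in replicate 1 and 5 in replicate 2 were within 50 kb of the TSS. The strongest lay downstream of the 3′ end, at +81.3 kb, where the scores were 126 and 96 in the same 150 bp. Near it the scores were 106 and 64 at +78.2 kb, and at +83.4 kb in replicate 1 a peak of 94 overlapped one of 72 in replicate 2. Upstream, a peak at -70.6 kb scored 113 in replicate 1 and 72 in replicate 2. Deep in the gene, neighbouring intronic peaks at +50.9 and +51.1 kb in replicate 1 scored 103 and 107, and those they overlapped in replicate 2 scored 62 and 65. A SOX motif was present in 15 of the 30 distal peaks of Slc1a3 in replicate 1 and in 8 of 30 in replicate 2, against 24.0% and 20.6% of all distal peaks; the share in replicate 2 was near that of all peaks.

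Across the 7 genes, the share of peaks found in both libraries was close to that of all peaks. It was 114 of 216, or 52.8%, in replicate 1, against 52.6% of all peaks, and 115 of 179, or 64.2%, in replicate 2, against 69.3%. Their promoter peaks were shared in 10 of 15 cases in each library, or 66.7%, against 79.6% and 83.7% of all promoter peaks, and of the 5 that were not shared, 3 in replicate 1 and 5 in replicate 2 were at Msi1 or Slc1a3. The shared peaks were placed closely, with 27 identical windows and a median overlap of 130 bp. Peaks of the marker genes not shared had scores above a median of 42.9% of the list in replicate 1 and 45.7% in replicate 2, whereas for the shared ones the medians were 78.3% and 69.3%.

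Outside promoters, the pooled peaks of the marker genes, many of them from Msi2, had higher median ranks than all peaks of their class. The median intronic peak of the 7 genes scored above 64.3% of the list in replicate 1 and above 62.1% in replicate 2, against 44.5% and 43.4% for all intronic peaks. For distal peaks the medians were 56.6% and 56.8%, against 42.9% and 40.9%. Taken gene by gene, the intronic median was above that of all intronic peaks in 6 of 7 genes in replicate 1 and in 6 of the 6 with such peaks in replicate 2. The distal median was above that of all distal peaks in 5 of 7 genes in replicate 1, where Nes at 21.1% and Prom1 at 40.9% were below it, and in 6 of 7 in replicate 2, where Fabp7 at 40.6% was just below it. For Nes the distal medians were far apart, at 21.1% in replicate 1 and 67.5% in replicate 2. The top 10% of the list contributed 29 of 216 peaks, or 13.4%, in replicate 1 and 15 of 179 peaks, or 8.4%, in replicate 2, so that these shares fell on either side of 10%.

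The motif content of these peaks was close to that of all peaks in most families. SOX motifs were in 27.9% of the distal peaks of the marker genes in replicate 1 and 24.6% in replicate 2, against 24.0% and 20.6% of all distal peaks. Slc1a3 alone supplied 15 of the 43 distal peaks with a SOX motif in replicate 1 and 8 of 31 in replicate 2. At Msi2, the largest part of the pool, the shares were 24.6% and 22.0%. RBPJ motifs, the sites of the Notch effector, were in 19.5% and 19.0%, against 16.5% and 16.2%. NFI motifs were in 13.0% and 13.5%, against 8.70% and 8.66%. Octamers were in 4.5% of the distal peaks in replicate 1 and 1.6% in replicate 2, against 2.46% and 1.85%, so the order of the shares turned between the libraries. At promoters, SP/KLF motifs were in 6 of 15 peaks in replicate 1 and 5 of 15 in replicate 2, that is 40.0% and 33.3%, against 42.3% and 45.2% of all promoter peaks.

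Other genes of progenitors and the relatives of the 7 genes were set beside them. Of 20 further radial glia and progenitor genes, among them Sox2, Pax6, Hes1, Hes5 and Notch1, 20 carried a promoter peak in both libraries. Beside this count and those of the families below, 68.5% of all protein-coding genes carried one in replicate 1 and 67.7% in replicate 2. The marker genes had a median of 21 distal peaks in replicate 1 and 12 in replicate 2, against 29.5 and 22 for those 20 genes. Among 8 other intermediate filament genes, a promoter peak in each library was found at 7; the exception was Gfap, the filament of astrocytes. Nefl and Nefm, filaments of neurons, had best promoter scores of 123 and 130 in replicate 1 and 100 and 106 in replicate 2. Fabp7 was 1 of few open genes of its family: of 8 other Fabp genes, only Fabp3 and Fabp5, that is 2, carried promoter peaks in both libraries. Among 6 other Slc1 transporters 5 did, all but Slc1a7, and Prom2 had weak promoter peaks, with best scores of 33 in replicate 1 and 12 in replicate 2.

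Likeness among these 43 genes was measured over 4 quantities, the promoter, intronic and distal peak counts and the hotspot bases, each as a percentile among all genes averaged over the 2 libraries. Nes was most like Notch3, with a mean absolute difference of 0.6 percentile points. The averaging hid opposite orders of the libraries: Nes had 23 distal peaks in replicate 1 and 13 in replicate 2, whereas Notch3 had 15 and 21. The 4 quantities also took no account of territory, which was 25.5 kb for Nes and 91.1 kb for Notch3. Msi1 was closest to Ddr1 (3.9), Msi2 to Cdh2 (4.1), Fabp7 to Des (4.4), Slc1a3 to Notch3 (4.5), Vim to Slc1a4 (5.8) and Prom1 to Lix1 (6.1).

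Markers of other cells that the dissection could hold were read in the same way. Promoter peaks were present at 10 of 10 neuronal genes and 8 of 8 genes of mesoderm and connective tissue in each library, and at 5 of 6 genes of neural crest and peripheral glia in replicate 1 and 4 of 6 in replicate 2. They were present at 4 of 7 endothelial, 1 of 7 erythroid, 1 of 6 myeloid and 2 of 5 skeletal muscle genes in each library. The endothelial and muscle genes were not all the same in both: Emcn and Myog had a promoter peak only in replicate 1, Tek and Myf5 only in replicate 2. Of all protein-coding genes, 68.5% had a promoter peak in replicate 1 and 67.7% in replicate 2. The part of such cells in the results above was not tested.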

How the data were processed

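Open chromatin was measured by DNase-seq in 2 libraries of 1 group. Per the deposited text that lists the files, the authors made 1 peak file and 1 hotspot file per library on mm10, without pooling, by an aligner, caller and threshold not given in the sources used here. The authors deposited for each peak a score, a whole number up to 150 in replicate 1 and 148 in replicate 2, which served here for ranking inside a library alone, and for each hotspot a −log10 q-value, from 1.3 to 6 and then 100. Read depth is unknown. The lists held 199653 and 154324 peaks and 162801 and 132619 hotspots, which covered 78.6 and 51.0 Mb, after 45 and 22 repeated rows of peaks were removed.

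TSSs (54361), exons and introns came from protein-coding transcripts of GENCODE vM21. Python 3.11.15, numpy 2.4.6, pandas 2.3.3 and samtools 1.23.1 were used, and the assignment of peaks was checked on simulated regions. Overlap required 1 bp. Percentiles among genes place ties at their mean rank. The members, the lists of genes and the motifs were chosen with earlier results of these data known. Named are all 7 genes with every promoter peak, the shared intronic and distal peaks with the best mean rank, peaks in the top 10% of a list with no overlap in the other library, and the nearest genes by likeness; further peaks were named after their values were seen. Alternatives changed windows, distances, scores, list lengths, overlap and the library left out.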

Additional observations from a re-analysis of the deposited data

How the results depend on the processing

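The finding of a promoter peak at 7 of 7 genes held in both libraries under each alternative tried: windows of 200 and 1000 bp, the higher-scoring 50% of each list, equal numbers of peaks, and TSSs of all transcripts. The mean number of distal peaks of the 7 genes, 140.0, was 72.0 within 50 kb of the TSS and 83.0 in the higher-scoring 50% of the lists; the construction of both alternatives leaves fewer peaks. The mean share of peaks in both libraries, 58.5%, was 50.3% with an overlap of 75 bp, 68.1% when a hotspot of the other library counted and 69.7% in the higher-scoring 50%; the cause was not tested. Counting hotspots only at the top of the q-value scale left 43.4 kb of 62.5 kb. With 1 library left out, the values ranged over 7 genes with a promoter peak, 126 to 154 distal peaks, 106 to 119 intronic peaks, 52.8% to 64.2% shared and 51.5 to 73.4 kb of hotspots. Of 84 alternatives for counts at single genes, 61 stayed within 1.5 times of the count reported and 23 did not. The smallest distal counts, those of Prom1 and Fabp7, rest on few peaks: the distal peaks of Prom1 were 8 in replicate 1 and 2 in replicate 2. The smallest intronic counts were those of Fabp7, with 1 and 0 peaks, and Vim, with 3 and 2. No paired analysis was possible because the labels give 1 group. Without read counts, the depth behind a missing peak cannot be judged.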
